A study of Mus musculus with 6 samples.

Results

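The 10 genes described here encode feedback inhibitors of mitogen-activated protein kinase (MAPK) signalling. They are 6 dual-specificity phosphatase genes (Dusp1, Dusp4, Dusp5, Dusp6, Dusp7 and Dusp10), 3 Sprouty genes (Spry1, Spry2 and Spry4) and Spred1. They were taken by gene name from a table of 54433 genes. Each name had 1 row, and all 10 passed the filter on low counts and were among the 14889 genes tested. RNA was sequenced from MC3T3-E1, an osteoblast-like line of mouse cells kept in Dulbecco's modified Eagle medium with serum, penicillin and streptomycin. The 3 WT libraries came from wild-type control cells. The 3 FR libraries came from cells described as resistant to 30 ppm fluoride and exposed to a 30 ppm fluoride gradient, and adaptation of wild-type cells had begun with a 10 ppm gradient. The protocol mentions clones without saying how many entered the libraries. The series title speaks of mice, while every sample label names this cell line. No group of resistant cells without fluoride or of wild-type cells with fluoride is labelled, so resistance and exposure cannot be told apart. Nothing in the labels tells whether replicate libraries stem from separate cultures or separately adapted lines, so p-values reflect only the spread between replicate libraries, which may be technical.

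Growth factor receptors activate the small GTPase Ras, which starts a kinase chain of Raf, MEK and ERK. Parallel chains end in the kinases JNK and p38. Dual-specificity phosphatases remove phosphate from both the threonine and the tyrosine that activate a MAP kinase, and Sprouty and Spred proteins act upstream, between the receptor, Ras and Raf. Several of these inhibitors are themselves transcribed in response to ERK, which makes a negative feedback loop. In osteoblasts this pathway carries signals of fibroblast growth factors and other mitogens.

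Total expected counts ranged from 25700497 to 27140662 in WT and from 19246119 to 25185697 in FR, and levels are given as CPM, counts relative to the effective library size. At that depth 3 counts were worth 0.11 to 0.156 CPM, a limit that reflects counting error alone. The 9 mesenchymal and osteoblast markers summed to 16043 to 16350 CPM in WT and to 4169 to 4216 CPM in FR. All 5 that could be tested (Col1a1, Col1a2, Runx2, Cdh11 and Spp1) were called lower. The others of that list, Sp7, Alpl, Bglap and Ibsp, were too low to test in either group. Of 5 leukocyte markers, Cd68 and Csf1r were called higher in FR. That list summed to 0.741 to 1.55 CPM in WT and to 8.95 to 10.5 CPM in FR, while Ptprc had at most 5 counts, Adgre1 at most 1 and Cd3e 0 in every library. The skeletal muscle list summed to 1.65 to 2.06 CPM in WT and to 5.97 to 6.87 CPM in FR, of which Des, called higher in FR, gave 1.77 ± 0.138 and 6.26 ± 0.409 CPM (SD, n = 3 each), with Myod1 at 0 in every library. The adipocyte list summed to 0.507 to 1.05 CPM in WT and to 0.999 to 1.66 CPM in FR, and its Fabp4 was called higher, a call that ended in 7 of 15 alternatives, among them those without FR1, FR3, WT1 or WT3. Endothelial and epithelial lists had no called gene and summed to at most 1.13 CPM in any library. Chondrocyte markers summed to 70.9 to 73.9 CPM in WT and to 48.4 to 51.4 CPM in FR, with Sox9 and Col2a1 called lower and Acan at 0. The part of other cell types in the results was not tested, and in bulk RNA a change in the share of cells and a change in RNA per cell cannot be told apart.

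Dusp1, Dusp4 and Dusp7 were higher in FR, and Dusp5, Dusp6, Spry1, Spry4 and Spred1 were lower. Dusp10 and Spry2 did not pass the test. The largest rise was that of Dusp1, at 3.49-fold, and the largest fall that of Spry1, at 2.33-fold. So 3 of 10 were called higher at an edgeR adjusted p under 0.05, against a background of 34.6% of all tested genes, and 5 of 10 lower, against 35.5%. Together 8 of 10 were called, beside 70.1% of all genes, so the share of called genes was near the background. The groups did not overlap for 8 of 10, beside 72.4% of all genes. Dusp1 and Spry1, 2 of 10, were called with a change of 2-fold or more, beside 18.8% of all genes. The median log2 fold change of the 10 genes was −0.14, and that of all tested genes was 0.00.

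**Figure D1:**
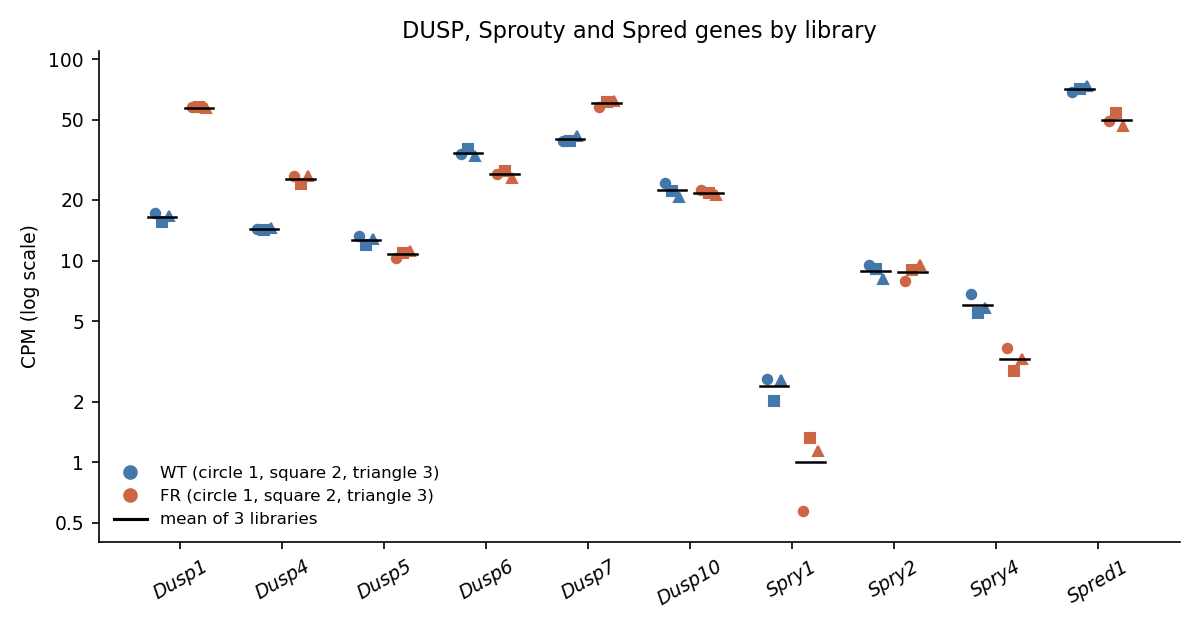
CPM of each of the 10 genes in each library on a log axis, WT in blue and FR in orange, with symbols for the library number and a bar at the mean of 3 libraries. Dusp1, Dusp4 and Dusp7 lie higher in every FR library than in any WT library, Dusp5, Dusp6, Spry1, Spry4 and Spred1 lie lower, and the groups of Dusp10 and Spry2 overlap.

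Dusp1 (ENSMUSG00000024190) encodes MKP-1, an inducible nuclear phosphatase that acts on p38 and JNK as well as ERK. It measured 17.2, 15.6 and 16.6 CPM in the WT libraries and 57.9, 57.6 and 56.9 CPM in the FR libraries. The FR libraries had a coefficient of variation of 0.933%, at 1115, 1441 and 1204 counts. Counting error alone would give a larger spread, so this closeness does not measure how tightly the level was held. The lowest FR library was 39.7 CPM above the highest WT library. The log2 fold change was 1.80 ± 0.05 (SE; edgeR adjusted p = 4.12e-22), and 8.82% of tested genes had a larger change in either direction. In an annotation of the earlier build GRCm38, the Dusp1 model lies partly across that of Ergic1 on the opposite strand, and the protocol does not say whether strand was kept. Ergic1, which encodes a protein of transport between the endoplasmic reticulum and the Golgi, was at 210 ± 1.01 CPM in WT against 257 ± 2.56 CPM in FR (SD, n = 3 each), and its log2 fold change was 0.29 ± 0.03 SE. Its part in the Dusp1 count was not tested.

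Dusp4 (ENSMUSG00000031530) encodes MKP-2, also nuclear and inducible. It was at 14.3, 14.2 and 14.6 CPM in WT and at 26.2, 23.9 and 26.2 CPM in FR. The groups were separated by 9.23 CPM, and the rise was 1.77-fold (95% interval 1.6 to 1.95; edgeR adjusted p = 1.70e-11). Dusp5 (ENSMUSG00000034765), a nuclear phosphatase that is selective for ERK, was at 13.2, 12 and 12.8 CPM in WT and at 10.3, 10.9 and 11.1 CPM in FR. Its groups were separated by only 0.845 CPM. The log2 fold change of Dusp5 was −0.23 ± 0.09 (SE; edgeR adjusted p = 0.0244). This call ended with DESeq2 (adjusted p = 0.0762) and without library FR1 (0.0608), WT1 (0.0708) or WT3 (0.0505), and over all alternatives the adjusted p ranged from 0.0164 to 0.0762. The nuclear phosphatases thus moved in both directions: Dusp1 and Dusp4 rose, and Dusp5 fell with a call that rests on single libraries.

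The sequences before the starts of Dusp1 and Dusp5 are shown. Of the 8 genes searched in the RefSeq promoter table (GRCm38.p6), only these 2 held a match to a searched motif. Dusp4 and Spry4 were not searched. Capitals mark matches to the cyclic AMP response element (CRE), its core, or the CArG box. Each line gives the 250 bases before the RefSeq start, 5′ to 3′ on the strand of the gene. The Dusp1 sequence lies on the minus strand at chr17:26508473-26508722 and the Dusp5 sequence on the plus strand at chr19:53528895-53529144.
Dusp1: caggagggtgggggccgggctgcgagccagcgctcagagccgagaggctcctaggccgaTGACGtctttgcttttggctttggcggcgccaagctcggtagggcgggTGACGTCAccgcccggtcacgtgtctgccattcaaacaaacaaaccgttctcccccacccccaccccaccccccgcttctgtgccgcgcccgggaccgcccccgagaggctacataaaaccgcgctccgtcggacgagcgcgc
Dusp5: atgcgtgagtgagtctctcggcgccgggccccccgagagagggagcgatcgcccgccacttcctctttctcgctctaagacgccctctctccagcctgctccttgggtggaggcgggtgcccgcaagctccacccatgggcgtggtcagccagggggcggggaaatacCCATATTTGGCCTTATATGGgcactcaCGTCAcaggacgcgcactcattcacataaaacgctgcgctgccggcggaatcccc

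The window searched on both strands reached from 250 bases before to 50 bases after the start. The motifs were CRE (TGACGTCA), the CRE core (TGACG, which also lies inside CRE), AP-1 (TGANTCA), ETS (CCGGAAG), the TATA box (TATAAA) and the CArG box, the binding sequence of serum response factor. Dusp1 held a full CRE with its first base at −143, and a separate CRE core at −191. A full CRE was found in 1.80% of 32544 promoters of the table, and the core in 20.9%. Dusp5 held 2 adjacent CArG boxes, CCATATTTGG at −82 and CCTTATATGG at −72, and a CRE core at −55, while a CArG box was found in 1.64% of all promoters. No match to AP-1 (7.79% of all promoters), ETS (8.91%) or TATAAA (13.6%) was found in the windows of the 8 genes. These matches describe the letters of the reference and are not binding measurements. The 8 windows held 57.3% to 78.7% G and C (median 65.5%), against a median of 53.0% over all promoters.

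**Figure D2:**
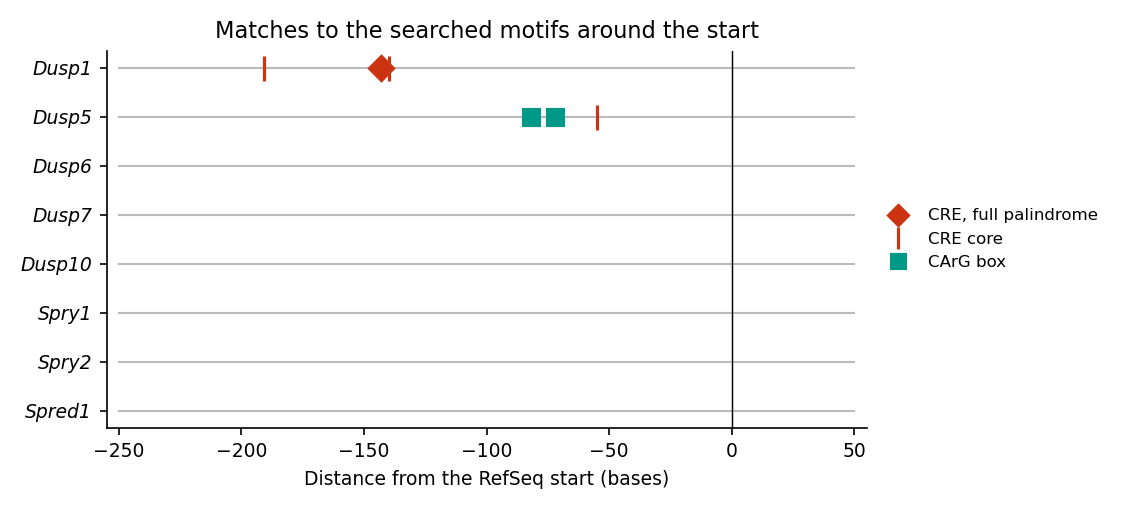
Matches to the searched motifs from 250 bases before to 50 bases after the RefSeq start of the 8 genes searched, on the distance to the start in bases. Dusp1 has the full CRE at −143 and Dusp5 the 2 CArG boxes at −82 and −72, and the other 6 genes have no match to any of the motifs.

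Dusp6 (ENSMUSG00000019960) encodes MKP-3, a cytoplasmic phosphatase selective for ERK and a common readout of fibroblast growth factor signalling. It was at 33.9, 35.7 and 32.9 CPM in WT and at 26.9, 27.9 and 25.7 CPM in FR. All FR libraries lay lower, by at least 4.95 CPM, and the log2 fold change was −0.35 ± 0.06 (SE; edgeR adjusted p = 3.47e-06). Dusp7 (ENSMUSG00000053716) encodes the closely related cytoplasmic phosphatase MKP-X, and it moved the other way. It was at 39.3, 39.3 and 41.3 CPM in WT and at 58.0, 61.4 and 62.1 CPM in FR, a rise of 1.51-fold (95% interval 1.42 to 1.61; edgeR adjusted p = 1.17e-12). The expected counts of Dusp7 were fractional in every library and those of Dusp5 in some, so some of their reads were shared with other genes by estimation, whereas those of Dusp1, Dusp4, Dusp6 and Dusp10 were whole in every library.

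Dusp10 (ENSMUSG00000039384) encodes MKP-5, which acts on JNK and p38. It was at 24.3, 22.2 and 20.7 CPM in WT and at 22.3, 21.7 and 21.1 CPM in FR. The FR libraries lay inside the range of the WT libraries, and the log2 fold change was −0.05 ± 0.07 (SE; edgeR adjusted p = 0.540). The 95% interval of the difference ran from 0.879-fold to 1.06-fold, so a change as large as that of Dusp6 lay outside it.

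Spry1 (ENSMUSG00000037211), a Sprouty inhibitor of receptor tyrosine kinase signalling, was the lowest of the 10 genes. It was at 2.60, 2.02 and 2.57 CPM in WT and at 0.571, 1.32 and 1.13 CPM in FR. The groups were separated by 0.699 CPM, and the FR libraries had only 11, 33 and 24 counts, with a coefficient of variation of 38.6%. The log2 fold change was −1.22 ± 0.27 (SE; edgeR adjusted p = 2.01e-04), and without library FR1 it was −0.97, under 2-fold, while that of Spry4 was then −1.01. Spry4 (ENSMUSG00000024427), another inhibitor of the same kind, was at 6.85, 5.51 and 5.81 CPM in WT and at 3.69, 2.84 and 3.26 CPM in FR. Its fall was 1.87-fold (log2 fold change −0.90 ± 0.15 SE; edgeR adjusted p = 4.56e-06).

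Spry2 (ENSMUSG00000022114), the most abundant of the 3 Sprouty genes in both groups, did not fall with them. It was at 9.56, 9.08 and 8.07 CPM in WT and at 7.89, 9.03 and 9.49 CPM in FR. The groups overlapped, and the log2 fold change was −0.01 ± 0.11 (SE; edgeR adjusted p = 0.913). Its 95% interval, from 0.850-fold to 1.15-fold, does not reach the fitted fold of Spry4 (0.534). Spred1 (ENSMUSG00000027351) encodes a membrane-bound relative of Sprouty that recruits neurofibromin, the Ras inactivator encoded by Nf1. It was at 68.4, 71.0 and 73.3 CPM in WT and at 49.1, 53.9 and 46.8 CPM in FR, so that every FR library lay at least 14.6 CPM lower. The log2 fold change was −0.50 ± 0.05 (SE; edgeR adjusted p = 4.89e-10). Nf1 itself was at 111 ± 1.45 CPM in WT and at 113 ± 1.46 CPM in FR (SD, n = 3 each) and was not called.

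To compare genes with each other, CPM were divided by the deposited gene length in kilobases. In WT the highest levels were those of Dusp7 (12.4 CPM per kilobase), Dusp6 (12.2) and Spred1 (11.8), and neighbours in this order had overlapping libraries. Dusp1 (8.27) and Dusp10 (8.02) followed and overlapped, as did Dusp4 (5.25) and Dusp5 (5.11), and below them came Spry2 (4.27), Spry4 (1.27) and Spry1 (0.967), each apart from the next. In FR the order was led by Dusp1 at 28.9 CPM per kilobase and Dusp7 at 18.8, apart from each other and from the rest. Dusp6 (9.61), Dusp4 (9.28), Spred1 (8.29) and Dusp10 (7.77) each overlapped with the next, and so did Dusp5 (4.36) and Spry2 (4.22). Spry4 (0.686) and Spry1 (0.406) stayed the lowest. Dusp1 therefore went from the fourth to the highest level of the set.

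The 6 DUSP genes summed to 52.3, 50.8 and 50.9 CPM per kilobase in WT and to 78.5, 78.9 and 78.7 in FR, a 1.53-fold higher level. The 3 Sprouty genes and Spred1 summed to 18.4, 18.1 and 18.3 CPM per kilobase in WT and to 12.9, 14.4 and 13.5 in FR, 0.744 of the WT level. The sums of the phosphatases and of the upstream inhibitors thus moved in opposite directions, and neither sum overlapped between the groups. Dusp1 made up 16.1 ± 0.623% of the DUSP sum in WT and 36.7 ± 0.398% in FR (SD, n = 3 each). The share of Dusp6 was 23.8 ± 1.14% in WT and 12.2 ± 0.485% in FR, while that of Dusp7 was 24.3 ± 0.947% and 23.9 ± 0.826%. Of the Sprouty and Spred sum, Spred1 made up 64.4 ± 2.51% in WT and 61.0 ± 2.83% in FR, and Spry2 23.3 ± 1.96% and 31.0 ± 2.44%. The ratio of Dusp1 to Dusp6 per length, which needs no scaling between libraries, was 0.712, 0.612 and 0.710 in WT and 3.02, 2.90 and 3.10 in FR. It was 4.44-fold higher in FR. In exact two-sided permutation tests over the libraries, 14 of 16 such sums, shares and ratios reached p = 0.1 (Benjamini-Hochberg adjusted 0.114), the smallest p that 3 against 3 libraries allow, so none could pass 0.05. The shares of Dusp7 (exact permutation p = 0.8) and Spred1 (exact permutation p = 0.3) did not reach it. An exact permutation p of 0.1 means only that the groups do not overlap, as held for 72.4% of all tested genes. Sums, shares and ratios reuse the same genes, so these tests are not independent of each other. They are also not independent of the results of the single genes and add no support to them.

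**Figure D3:**
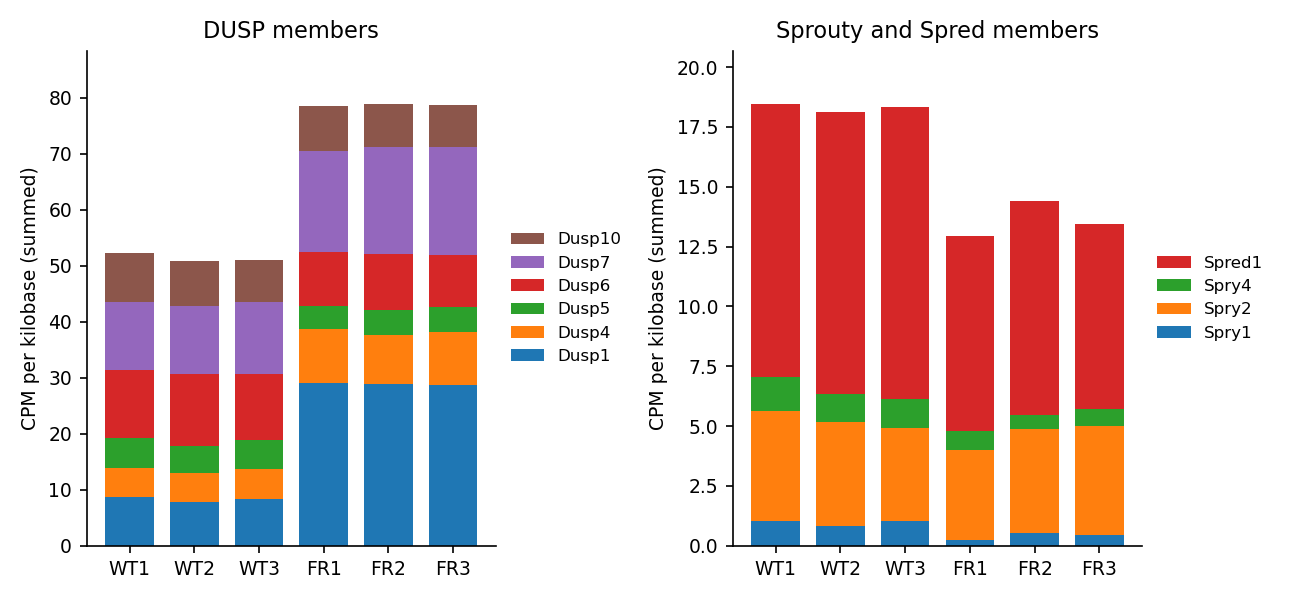
Summed CPM per kilobase of the 6 DUSP genes (left) and of the 3 Sprouty genes and Spred1 (right) in each library, with 1 coloured segment per gene and axes that start at 0. The DUSP bars of FR stand near 78.7 against 51.3 in WT, mostly through the Dusp1 segment, and the Sprouty and Spred bars are lower in FR.

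The other typical MAP kinase phosphatases moved mostly upward. Of 4 tested, 3 rose and 1 fell (median log2 fold change 0.54, against 0.00 over all tested genes). Beside this list and the lists below stand 34.6% of all tested genes called higher and 35.5% called lower. Dusp9, which encodes a cytoplasmic phosphatase, rose from 7.84 ± 0.547 to 17.8 ± 0.771 CPM, Dusp8 from 15.8 ± 0.855 to 24.9 ± 2.05 CPM and Dusp16 from 36.1 ± 1.35 to 48.0 ± 1.75 CPM, as mean ± SD of 3 libraries. Dusp8 and Dusp16 encode phosphatases for JNK and p38. Counts of Dusp2 were 12, 15 and 13 for WT and 2, 4 and 8 for FR. Its call as lower (edgeR adjusted p = 0.0315) ended in 6 of the 13 alternatives in which it was tested, among them those without FR1, FR2, WT2 or WT3, and the adjusted p ranged from 0.0116 to 0.124. Of 9 tested atypical dual-specificity phosphatases, which lack the kinase-binding domain of the typical class, 5 rose and 4 were called lower (median 0.23). The lower call of Dusp23 (edgeR adjusted p = 0.0464, with 16, 6 and 6 counts in FR) ended in 10 of the 14 alternatives in which it was tested, among them those without FR2, FR3 or any of the WT libraries. The largest rise was that of Dusp22, with 4.72 ± 0.860 CPM in WT against 11.6 ± 1.26 CPM in FR. Dusp28 had the lowest log2 fold change with 0, 0 and 3 counts in FR, so its fold is poorly determined. Dusp18, named after its values were seen, was called lower, with 13.2 ± 0.629 CPM in WT against 1.94 ± 0.0839 CPM in FR (SD, n = 3 each).

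Genes known to be transcribed in response to ERK were mostly lower in FR. Outside the 10 feedback genes 11 were tested: 3 rose, 7 fell and 1 was not called, with a median log2 fold change of −0.84. Of all tested genes, 34.6% were called higher and 35.5% lower. The ETS factor genes Etv1 (−2.36 ± 0.11 SE), Etv5 (−1.97 ± 0.07) and Etv4 (−0.84 ± 0.07), which respond to fibroblast growth factors, all fell. Egr1, an immediate early transcription factor gene, fell from a WT level of 50.1 ± 0.816 to an FR level of 12.8 ± 1.15 CPM (SD, n = 3 each). The D-type cyclin gene Ccnd1 (log2 fold change −1.58 ± 0.03 SE), the ephrin receptor gene Epha4 (−1.0 ± 0.14) and Phlda1 (−0.52 ± 0.05) fell as well. Myc rose from 78.9 ± 2.20 to 141 ± 3.07 CPM, Ier3 from 35.1 ± 0.131 to 51.6 ± 1.19 CPM and the ephrin receptor gene Epha2 from 91.6 ± 0.423 to 128 ± 2.29 CPM (SD, n = 3 each). Fosl1, an AP-1 gene, was at 35.4 ± 2.13 CPM in WT and at 34.7 ± 1.44 CPM in FR and was not called. Of 11 further immediate early genes, 7 fell and 4 were not called with edgeR (median −0.18). Of those called lower, Fos (6, 4 and 4), Egr2 (8, 12 and 0) and Atf3 (0, 5 and 5) had few counts in FR1, FR2 and FR3. With the 1 CPM filter 5 fell. With DESeq2 6 fell, and 0 rose with edgeR, DESeq2 or limma-voom. At an unadjusted p under 0.05, 1 of them (Fosb) was higher with edgeR and with limma-voom and 0 with DESeq2, and Fosb was called higher without FR3 and with the 1 CPM filter. The lowest fold change among them was that of Egr3, whose level was 5.09 ± 0.387 CPM in WT and 0.814 ± 0.117 CPM in FR (SD, n = 3 each).

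**Figure D4:**
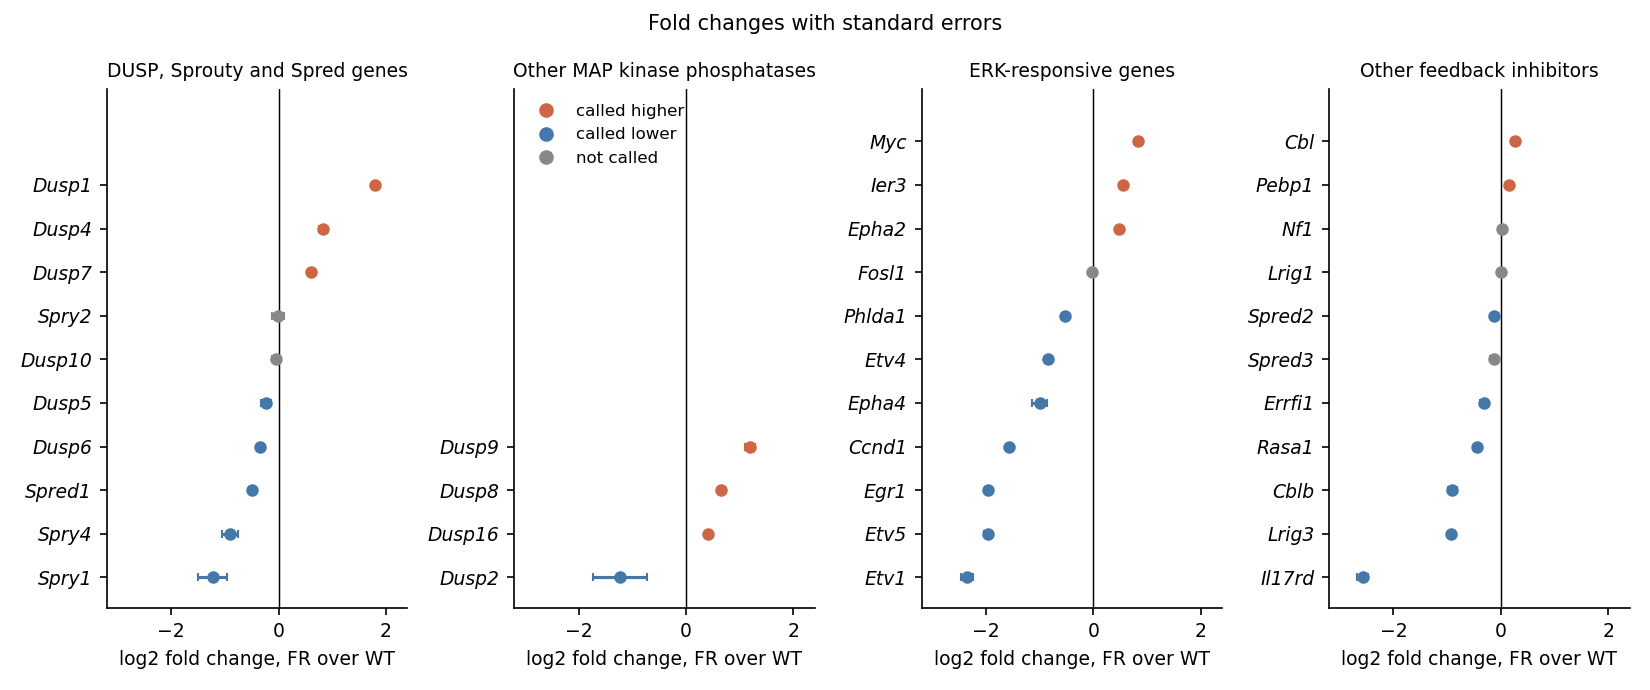
Log2 fold change of FR over WT with its standard error for the 10 genes, the other typical MAP kinase phosphatases, the ERK-responsive genes and the other feedback inhibitors, coloured by the edgeR call. Dusp1 stands highest among the 10 genes at 1.80 and Spry1 lowest at −1.22, while among the ERK-responsive genes the values run from −2.36 (Etv1) to 0.83 (Myc).

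Among 11 tested other inhibitors of receptor and Ras signalling, 2 rose, 6 fell and 3 were not called, with a median log2 fold change of −0.13. Il17rd encodes Sef, an inhibitor of fibroblast growth factor signalling that is itself induced by it. It was at 30.8 ± 1.92 CPM in WT against 5.23 ± 1.13 CPM in FR (SD, n = 3 each), and its log2 fold change of −2.57 ± 0.10 (SE; edgeR adjusted p = 1.23e-15) was lower than that of each of the 10 genes. Cbl, a ubiquitin ligase gene, had the largest rise of that list at 0.26 ± 0.04 (log2 fold change ± SE). Of 12 growth factor receptor genes, 5 were called higher, 6 lower and 1 did not pass (median −0.05). The epidermal growth factor receptor gene Egfr fell most, from 21.3 ± 1.42 to 1.57 ± 0.389 CPM, and the largest positive value was that of Erbb3, which was low, at 0.443 ± 0.122 and 0.918 ± 0.288 CPM (SD, n = 3 each). The call of Erbb3 (edgeR adjusted p = 0.0187) ended in 4 of the 14 alternatives in which it was tested, namely DESeq2, thinned counts and without FR1 or WT2, and the adjusted p ranged from 0.0186 to 0.129.

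The genes between receptor and ERK moved in both directions. Of 18 genes from adaptor proteins to ERK, 10 rose, 6 fell and 2 were not called (median log2 fold change of 0.13). A call with a change of 2-fold or more was reached by 0 of them, beside 18.8% of all tested genes. Sos2, a Ras exchange factor gene, had the largest value at 0.48 ± 0.06 SE and Mapk3, which encodes ERK1, the lowest at −0.76 ± 0.04. Mapk3 was at 128 ± 3.96 CPM in WT against 75.6 ± 3.45 CPM in FR (SD, n = 3 each). Among genes of the JNK and p38 chains 16 were tested, of which 5 rose, 8 fell and 3 did not pass (median −0.12). Map3k1 rose from 6.34 ± 0.189 to 12.5 ± 0.887 CPM, and Map3k5, which encodes ASK1, was low, at 0.718 ± 0.273 and 0.131 ± 0.114 CPM. MAPK signalling, a pathway term deposited with the table, was looked up after the values were seen. It covered 234 tested genes, of which 86 rose and 93 fell (median −0.02). The share called was 76.5%, beside 70.1% of all tested genes. All 6 DUSP genes carried that term, and 0 of the 4 Sprouty and Spred genes did.

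Inducible regulators often have short-lived messenger RNAs with AU-rich elements in the 3′ untranslated region, so ATTTA was counted in the longest annotated 3′ untranslated region of each gene (GENCODE, GRCm38). Dusp1 held 4 in 690 bases, or 5.80 per kilobase, a density above that of 96.1% of 11849 tested genes with at least 100 bases. It was also the only 1 of the 10 genes with the longer element TTATTTATT, which 8.92% of all these genes held. Spred1 held 12 in 4330 bases (2.77 per kilobase) and Dusp10 3 in 1113 bases (2.70 per kilobase). Dusp7, which rose, held none in 1778 bases, and Dusp6 and Dusp5, which were lower in FR, held 1 each. The median over the 10 genes was 1.94 per kilobase, against 1.41 over all genes. The annotation is of another build, and which 3′ ends these cells use was not measured.

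The genes most like Dusp1 in pattern, by the root mean square difference of log2 CPM from the WT mean over 6 libraries, were Ptprf (0.048), Nyap1 (0.062) and Rps26-ps1 (0.063) among 9986 candidates of at least 5 CPM. Ptprf, a receptor-type tyrosine phosphatase gene, went from 43.3 to 146 CPM in the mean of 3 libraries. Rps26-ps1 is a pseudogene whose reads can be shared with its parent gene. Nearest to Spry1 were Mtln (0.228), Spn (0.261) and Ap1s2 (0.262), a looser likeness at the low counts of Spry1. With 6 libraries in 2 groups, likeness mostly means a similar difference between the groups.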

How the data were processed

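Poly(A)-selected RNA of 6 libraries was sequenced as paired ends, per the labels' protocols. The submitters' processing notes name fastp, HISAT, RSEM and the genome build GRCm39, without versions or settings. Expected counts, unscaled, were deposited as 1 table of genes by libraries, with gene lengths in bases, pathway terms and the authors' group means, which were not used. Expected counts were rounded, filtered with filterByExpr, scaled by TMM and tested by edgeR 4.0.16 in R 4.3.3 (quasi-likelihood F-test, robust fit) over all 14889 genes left. P-values were adjusted by Benjamini-Hochberg over all of them, with a threshold of 0.05. Log2 fold changes are FR over WT, and 95% intervals use the degrees of freedom of the fit. CPM were computed with TMM factors.

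The text names all 10 genes and, for each other pathway list, its extreme called genes, and every other typical phosphatase and ERK-responsive gene of at least 1 CPM. The genes and lists were chosen with earlier results of these data known. Counts of 14687 genes were simulated with 200 of them changed and the same biological variation for every gene. There edgeR called 68.0% of 50 genes changed 1.2-fold and 90.0% of 50 changed 2-fold, with 5 of 14487 unchanged genes called. In the data 10440 genes were called and variation differs between genes, so these rates need not hold for them. The chi-square per degree of freedom between libraries within a group was 2.34 to 3.37, above sampling noise, so no library is an exact copy of another. This does not tell whether libraries of a group share a culture. The common biological coefficient of variation was 3.25%. Alternatives were other scalings, filters, a fit that is not robust, DESeq2 1.42.0, limma-voom (limma 3.58.1), a replicate block, thinning and each library left out. Promoter sequences are from RefSeq (GRCm38.p6), and no coordinate of that build was set on the count table.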

Additional observations from a re-analysis of the deposited data

How the results depend on the processing

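Of the 10 genes, 7 (Dusp1, Dusp4, Dusp6, Dusp7, Spry1, Spry4 and Spred1) kept their direction and their call in all 15 alternatives. Dusp5 kept its direction and lost its call in 4. Of the genes that were not called, Spry2 changed sign when single libraries were left out, with a range from −0.08 to 0.04 on the log2 scale. Dusp10 ranged from −0.10 to 0.00, with the highest value without WT1. With each library left out, 9968 to 10221 genes of all tested were called, 3 of the 10 higher and 4 to 5 lower. With the replicate block 10292 genes were called, 3 of the 10 higher and 5 lower. Whether the library numbers pair the samples is not labelled. Deviations of WT and FR libraries of the same number correlated at 0.014, −0.018 and −0.045 over 10639 genes. Those of different numbers correlated at −0.08 to 0.096. A low correlation does not show that libraries of the same number were handled apart. Both summed levels kept their direction under the other scalings, without length and with each library left out. Of 450 counts of called genes in the other lists under the alternatives, 422 stayed within 1.5 times the value reported and 28 did not. Several of the reported counts were 0, and a 0 that stayed 0 says little about stability. This limit also passed a change from 7 to 5 among the immediate early genes called lower. The atypical phosphatases called lower were 2 with thinned counts and with the 1 CPM filter, against 4, and the growth factor receptors called higher were 4 to 5. Depth limits Spry1, Dusp2, Dusp23, Dusp28, Erbb3, Fabp4, Fos, Egr2 and Atf3, which had few counts.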
